A study of Mus musculus with 4 samples.

Results

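The transcription factors described here are 10 mouse genes of endothelial and blood cell gene control: the SoxF genes Sox7 and Sox17, the Ets family genes Erg, Fli1, Ets1, Ets2 and Elk3, and Gata2, Tal1 and Lmo2. They were chosen by name, with earlier results of these data known, so the counts below describe the set and are not independent support. All probe sets that the platform annotation gives to 1 of these symbols alone were kept, which gave 18 probe sets for 10 genes, of 12393 genes on the array. The 4 arrays, one-colour Affymetrix chips, carried RNA of Py-4-1, a cell line from a mouse hemangioendothelioma, a tumour of endothelial cells. The groups were 2 clones transfected with the control plasmid (labelled pcDNA) and 2 clones labelled as stably expressing Prox1 (pcDNA/Prox1), with 1 array per clone. All 4 clones share the Py-4-1 background. The promoter that drives Prox1 is not given in the sources used here. Each group is thus a pair of clones, and differences between clones, cultures and arrays within a group cannot be told apart. The comparison addresses which genes differ in this endothelial tumour line where Prox1, the homeobox factor of lymphatic endothelium, is introduced.

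Ets factors bind a short purine-rich core and together occupy most promoters and enhancers that are active in endothelium. Gata2, the basic helix-loop-helix factor Tal1 and the LIM-only protein Lmo2 can sit in a shared DNA-bound complex, in which Lmo2 binds no DNA itself and bridges the others. SoxF proteins bend DNA through a high mobility group domain and act in arterial and lymphatic vessel formation. Several of these factors are also used by blood progenitors, which arise from endothelium.

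Values are probe set intensities, and log2 changes are the mean log2(intensity + 47) of the Prox1-labelled clones minus that of the control clones. A log2 change on this scale understates the change of dim probe sets. In every pair of values below, clone 1 comes before clone 2, and controls come before Prox1-labelled clones. Prox1 itself was not higher in the Prox1-labelled clones. Its probe set (1421336_at) read 52.1 and 60.5 in the controls against 62.4 and 44.3 in the Prox1-labelled pair, and whether it lies in the introduced sequence is not known here. The arrays had the same trimmed mean of 500. As a mark of background, the brightest of the 27 probe sets for Bacillus spike-in sequences read from 45.3 to 101 on the 4 arrays. Of 12 endothelial markers, 11 exceeded that mark in every clone, and the tight junction gene Cldn5 did so in a single clone. Their summed intensity was 41866 in control clone 1, 51736 in control clone 2, and 54261 and 52008 in Prox1-labelled clones 1 and 2. Of 10 leukocyte markers on the array, 3 exceeded the highest Bacillus control in every clone, the brightest being Cd68 (847 and 970 against 708 and 806). Ptprc, the pan-leukocyte marker, lay under it in every clone (15.2 and 51.2 against 21.3 and 36.5).

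Of the 18 probe sets, 15 exceeded the highest Bacillus control in all 4 clones. The exceptions were both probe sets of Sox17 and the probe set of Erg. The test took probe sets that exceeded the array median on at least 2 arrays, which kept 16 of the 18, for 9 of the 10 genes. Erg and the dimmer probe set of Gata2 were not kept and are given from the same fit without that filter. Both probe sets of Sox17 passed the filter through the Prox1-labelled clones alone, so a difference between the groups was built into their passing.

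No member differed between the groups past the threshold. With limma and Benjamini-Hochberg adjustment over all 11656 probe sets, 0 of the 16 had an adjusted p under 0.05, against 0.103% of all probe sets tested. The lowest adjusted p was 0.0686, for Sox17. At an unadjusted p under 0.05 there were 8 of 16, each higher in the Prox1-labelled clones, against 8.65% of all tested probe sets that were higher and 5.88% that were lower. Without the filter, which spares the counts its selection, 5 of 18 had an unadjusted p under 0.05 in the higher direction, against 5.89%, and 0 of 18 passed after adjustment, against 0.0%.

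The values themselves lay mostly on the higher side. All 18 probe sets had a log2 change above 0, against 50.4% of the 22626 probe sets on the array, and Ets2 turned to -0.02 when arrays were centred on their medians. In 9 of the 18 both Prox1-labelled clones exceeded both control clones, against 20.9% of all, and in 0 of 18 they lay below, against 20.2%. The median log2 change over the 9 tested genes was 0.53, each gene read from its brightest probe set, where the median over all 6956 genes tested was 0.01. The 9 include Sox17, which passed the filter through the Prox1-labelled clones alone. Without the filter, the median over the 18 probe sets was 0.54, and that over all 22626 was 0.003. Probe sets of 1 gene read the same RNA and are not independent.

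**Figure D1:**
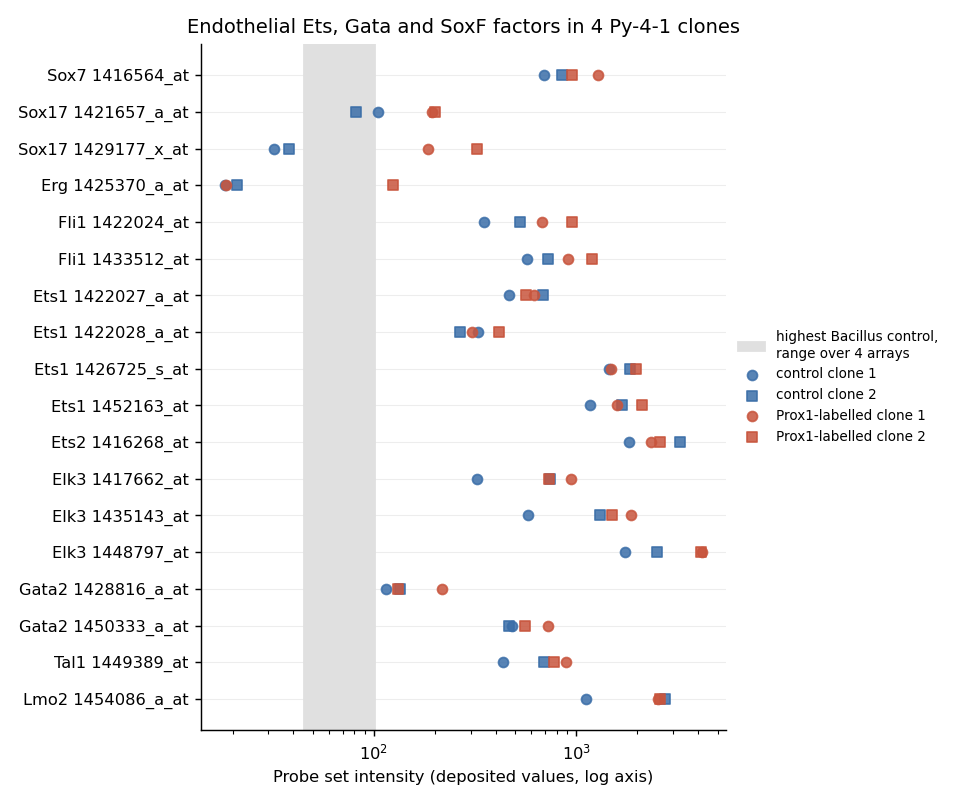
Intensity of each of the 18 probe sets (rows) in the 4 clones on a log axis; blue symbols are control clones and red symbols Prox1-labelled clones, circles clone 1 and squares clone 2, and the grey band spans the highest Bacillus control of the 4 arrays (45.3 to 101). Control clone 1 has the lowest value in 15 of the 18 rows.

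Control clone 1 stood low in most of these probe sets. It held the lowest of the 4 values in 15 of the 18 member probe sets, against 31.3% of all probe sets. Control clone 2 exceeded control clone 1 in 7 of the 9 tested genes, against 56.8% of all genes. The median difference over all 9 was 0.34 log2 units, where the median over all genes was 0.06. The endothelial markers differed between the control clones in the same way, higher in clone 2 in 9 of 11 tested genes with a median of 0.45. Their median change between the groups was 0.19, which was 0.03 when control clone 1 was dropped and 0.47 when control clone 2 was. The part of endothelial transcript level in the members' values was not tested. In RNA of a whole culture dish, fewer cells of a kind and less RNA per cell cannot be told apart. With control clone 1 dropped, 14 of 18 probe sets had a positive change, against 48.3% of all probe sets. Both Prox1-labelled clones then exceeded control clone 2 in 10 of 18 (34.7% of all probe sets) and lay below it in 3 of 18 (38.2% of all), which were those of Ets2 and Lmo2 and 1422027_a_at of Ets1. With control clone 2 dropped, 18 of 18 had a positive change, against 52.8% of all probe sets. Both Prox1-labelled clones then exceeded control clone 1 in 17 (40.1% of all) and lay below it in 0 (35.5% of all). The median over tested genes was 0.35 without control clone 1 and 0.68 without control clone 2.

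**Figure D2:**
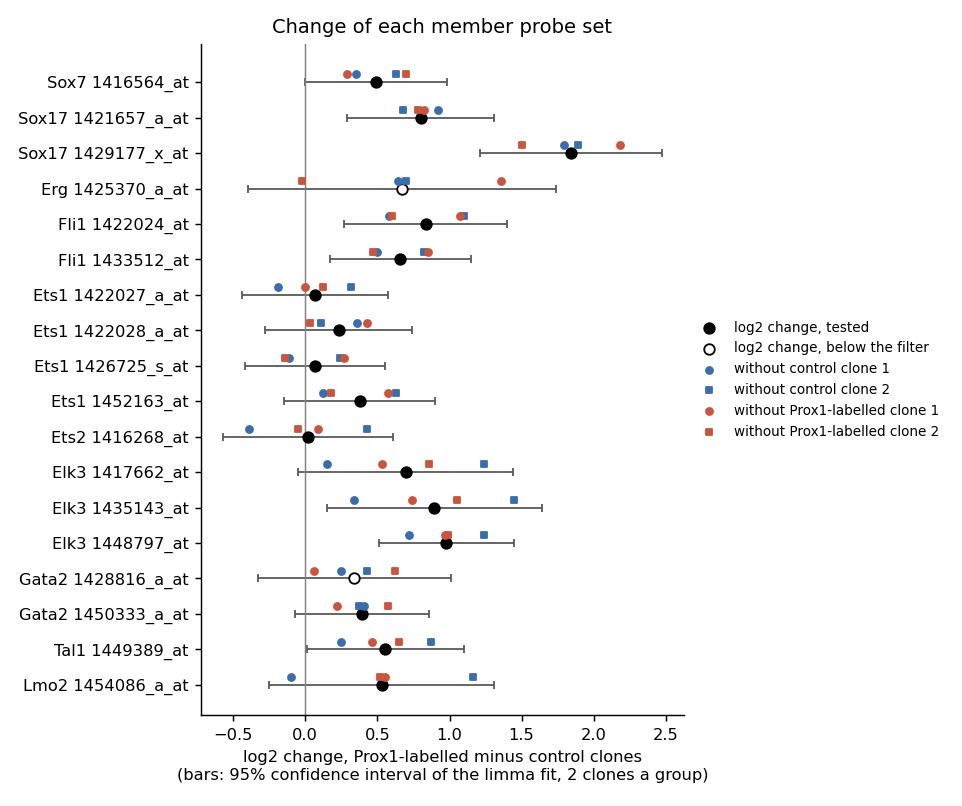
Log2 change of each probe set (black, or open where below the filter) with its 95% confidence interval from the limma fit over 2 clones a group, and the same change with 1 clone left out (small symbols, coloured by the clone left out). The intervals of Sox17, Fli1, Elk3 (1448797_at and 1435143_at) and Tal1 lie above 0, that of Sox7 starts at 0.00, and those of Erg, Ets1, Ets2, Gata2, Lmo2 and Elk3 1417662_at reach below it.

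Among the SoxF genes, Sox17, a factor of arterial vessels, had the largest change of the set. Its probe set 1429177_x_at read 31.9 and 37.9 in the controls against 184 and 325 in the Prox1-labelled pair. Both control signals lay under the highest Bacillus control of their array, while both Prox1-labelled signals lay above it, so the groups were far apart but the size of the change is uncertain. The log2 change was 1.84 ± 0.28 (SE, adjusted p = 0.0686), with 2.81 without a pseudocount and 1.02 with a pseudocount of 173. The suffix of this probe set marks probes that can match other transcripts.

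The other probe set of Sox17, 1421657_a_at, read 105 and 81.7 in the controls against 193 and 200.2 in the Prox1-labelled pair. The groups did not overlap here either, with 93.4 ± 16.6 (SD, n = 2) as the control mean against 197 ± 4.74. This gave a log2 change of 0.80 ± 0.23 (adjusted p = 0.188), or 0.47 with the larger pseudocount. Without the filter, which 1429177_x_at passed through the Prox1-labelled clones alone, its adjusted p was 0.367. Within the filtered set it fell to between 0.000779 and 0.0472 when any single clone was left out, in fits where the lone clone of a group is assumed to vary like the clones of the other. These values carry that selection and support no call. No such fit moved 1421657_a_at past the threshold.

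Sox7, a SoxF factor of embryonic endothelium, was well above background in all clones. It read 695 and 849.7 in the controls against 1275 and 947 in the Prox1-labelled pair. The groups did not overlap, though Prox1-labelled clone 2 lay closer to control clone 2 than to Prox1-labelled clone 1. Sox7 gave a log2 change of 0.49 ± 0.22 (adjusted p = 0.343), with 0.29 without Prox1-labelled clone 1. The third SoxF gene, Sox18, read 3947 and 5561 against 5039 and 4415, with a log2 change of 0.01 (adjusted p = 0.990).

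Fli1 and Erg are closely related Ets factors that keep endothelial genes active. Fli1 was measured by 2 probe sets that gave the same order of clones. By 1433512_at it read 572 and 726 in the controls against 909.5 and 1201 in the Prox1-labelled pair. By 1422024_at it read 352 and 525 against 679 and 957. In both probe sets each Prox1-labelled clone exceeded each control clone, and clone 2 was the higher clone of either group. The log2 changes were 0.66 ± 0.22 (adjusted p = 0.236) and 0.84 ± 0.25 (adjusted p = 0.203). Without control clone 2 the changes were 0.82 and 1.10, and without control clone 1 they were 0.50 and 0.58.

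Erg was at background in 3 of the 4 clones. Its probe set 1425370_a_at read 18.4 and 21.1 in the control clones, 18.7 in Prox1-labelled clone 1 and 124 in Prox1-labelled clone 2. Only Prox1-labelled clone 2 exceeded the highest Bacillus control of its array, so the difference belongs to that clone and not to the group. The log2 change of 0.67 ± 0.43 (adjusted p = 0.654, without the filter) became -0.02 without it. The level of Fli1 and that of Erg cannot be set against each other, since the probe sets differ.

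Ets1 and Ets2, founding members of the family that respond to growth factor signalling through MAP kinases, did not separate the groups. Ets1 had 4 probe sets, and in each of them the groups overlapped. The brightest, 1426725_s_at, read 1446 and 1848 in the controls against 1481 and 1979 in the Prox1-labelled pair. In both groups clone 2 was the higher one, and the groups lay side by side. Its log2 change was 0.06 ± 0.22 (adjusted p = 0.925), with a 95% confidence interval from -0.42 to 0.55. The change by 1452163_at was 0.38 ± 0.23 (adjusted p = 0.502), from 1164 and 1677 to 1589 and 2105. The remaining probe sets gave 0.06 (1422027_a_at, from 464 and 682 to 617 and 565) and 0.23 (1422028_a_at, from 327 and 267 to 304 and 414). Without control clone 1, 1422027_a_at stood at -0.19 and 1426725_s_at at -0.11, while the other 2 probe sets stayed above 0.

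Ets2 read 1815 and 3237 in the controls against 2346 and 2588 in the Prox1-labelled pair. Both Prox1-labelled values fell between the control values. The log2 change was 0.02 ± 0.26 (adjusted p = 0.981), while the mean intensity was lower in the Prox1-labelled clones, 2467 ± 171 against 2526 ± 1006 (SD, n = 2). The interval of the log2 change ran from -0.57 to 0.61, so changes within these bounds in either direction are not excluded. Without control clone 1 the value was -0.39, and without control clone 2 it was 0.43.

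Elk3, a ternary complex factor that represses serum response genes until MAP kinase signalling turns it into an activator, was higher in both Prox1-labelled clones by its brightest probe set. By 1448797_at it read 1735 and 2499.9 in the controls against 4178 and 4119 in the Prox1-labelled pair. The Prox1-labelled clones lay close together and well above both control clones, with a mean of 4148 ± 41.4 (SD, n = 2) against 2118 ± 541, or 1.96-fold. The log2 change was 0.98 ± 0.21 (adjusted p = 0.128). Each fit that left out a clone kept it positive, with a low of 0.72 when control clone 1 was dropped. Dropping control clone 2 gave 1.24.

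The dimmer probe sets of Elk3 gave the same direction with more spread. By 1435143_at it read 577 and 1309.5 against 1854 and 1493, with a log2 change of 0.90 ± 0.33 (adjusted p = 0.269). By 1417662_at it read 323 and 745 against 937 and 733, and here control clone 2 exceeded Prox1-labelled clone 2. That change was 0.70 ± 0.33 (adjusted p = 0.371). Control clone 1 was the low clone in all 3 probe sets of Elk3, and without it the changes by 1435143_at and 1417662_at were 0.34 and 0.15. Without control clone 2 they were 1.45 and 1.24.

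The genes whose pattern over the 4 arrays lay nearest to that of Elk3 (1448797_at) were ranked by Euclidean distance between log2 values, each gene centred on its own mean. They were Phldb2, which encodes a membrane-associated protein of the cell cortex (distance 0.09), the squalene epoxidase gene Sqle (0.11), the nucleotide excision repair gene Xpa (0.12), the guanylate-binding protein gene Gbp3 (0.14) and the Krüppel-like factor gene Klf4 (0.14). Their log2 changes ran from 0.88 for Klf4 to 1.01 for Phldb2, and 0 of the 5 passed the threshold. Among the other members, Tal1 ranked 191 and Fli1 ranked 196 of 6955 genes in nearness to Elk3, while Ets1 ranked 2590 and Ets2 ranked 2718. These ranks describe 4 arrays and carry no test.

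**Figure D3:**
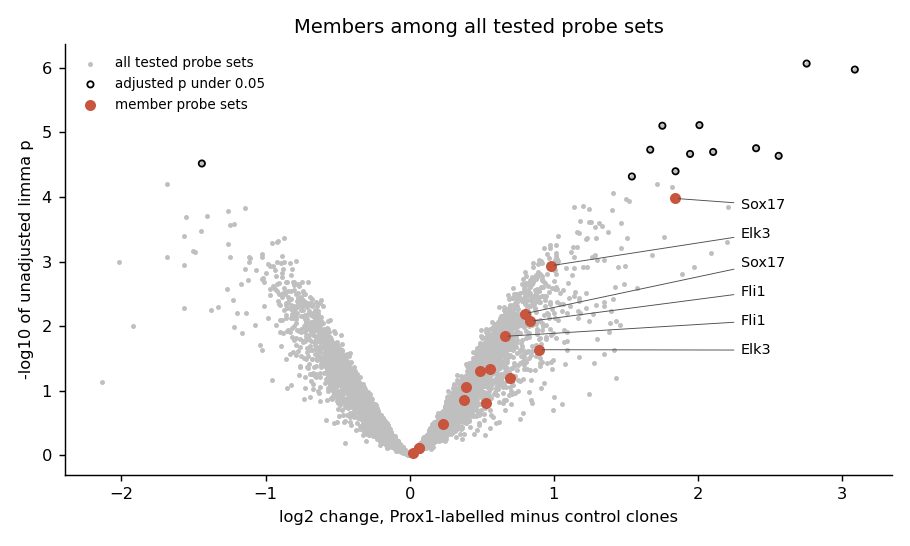
Log2 change against -log10 of the unadjusted limma p for the 11656 probe sets tested (grey), with the 12 of adjusted p under 0.05 ringed in black and the 16 member probe sets in red. Sox17 (1429177_x_at) lies just under the ringed probe sets, and Elk3 (1448797_at) is next by unadjusted p.

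Gata2, the zinc finger factor of blood stem cells and endothelium, was measured by 2 probe sets. By 1450333_a_at it read 479.6 and 467 in the controls against 723 and 558 in the Prox1-labelled pair. The control clones were close together and both lay below the Prox1-labelled clones. Gata2 gave 0.39 ± 0.20 (adjusted p = 0.416), and 0.22 without Prox1-labelled clone 1. The dimmer 1428816_a_at read 114 and 135 against 216 and 132, so Prox1-labelled clone 1 alone stood apart. Its change was 0.34 ± 0.27 without the filter (adjusted p = 0.730), and 0.06 without that clone.

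Tal1, a factor of blood development that can share a complex with Lmo2 and Gata2, was measured by 1449389_at. It read 434 and 692 in the controls against 889.7 and 773 in the Prox1-labelled pair. The groups did not overlap, and control clone 2 lay nearer to the Prox1-labelled clones than to control clone 1 on the log2 scale. For Tal1 the change was 0.56 ± 0.24 (adjusted p = 0.332). It was 0.25 without control clone 1 and 0.87 without control clone 2.

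Lmo2 showed the widest gap between control clones of all tested member probe sets. It read 1118 and 2747 in the controls against 2534 and 2588 in the Prox1-labelled pair (1454086_a_at). Control clone 2 was the highest of the 4, so the groups overlapped. The control clones differed by 1.26 log2 units, against a log2 change of 0.53 ± 0.35 between the groups (adjusted p = 0.527). The change was -0.10 without control clone 1 and 1.16 without control clone 2.

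Promoter sequence was held for 5 of the 10 genes (Tal1, Gata2, Elk3, Erg and Ets2), as 9 windows of 300 bases from RefSeq on GRCm38.p6, from 250 bases before to 50 after an annotated start. The windows below are those of Elk3, which had the largest change among bright probe sets, and of Tal1 and Erg, the ones that hold matches to the GATA, E-box or Sox motifs. Capitals mark the minimal Ets core GGAA (or TTCC), the GATA motif AGATAA or TGATAA, the E-box CAGATG and the Sox motif ACAAAG or ACAATG, each on either strand.
Elk3, chr10:93311110-93311409, minus strand: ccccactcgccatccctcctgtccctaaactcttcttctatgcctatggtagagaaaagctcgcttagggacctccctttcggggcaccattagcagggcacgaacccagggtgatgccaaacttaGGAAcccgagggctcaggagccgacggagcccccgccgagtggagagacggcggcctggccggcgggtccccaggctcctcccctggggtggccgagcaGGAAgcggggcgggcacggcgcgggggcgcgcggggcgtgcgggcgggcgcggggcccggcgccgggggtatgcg
Tal1, chr4:115056176-115056475, plus strand: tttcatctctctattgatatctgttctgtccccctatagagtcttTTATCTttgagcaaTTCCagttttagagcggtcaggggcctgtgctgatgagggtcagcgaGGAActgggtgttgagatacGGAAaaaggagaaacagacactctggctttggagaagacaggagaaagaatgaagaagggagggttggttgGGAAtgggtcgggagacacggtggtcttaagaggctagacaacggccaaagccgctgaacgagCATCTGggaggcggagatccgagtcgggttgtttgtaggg
Erg, chr16:95459299-95459598, minus strand: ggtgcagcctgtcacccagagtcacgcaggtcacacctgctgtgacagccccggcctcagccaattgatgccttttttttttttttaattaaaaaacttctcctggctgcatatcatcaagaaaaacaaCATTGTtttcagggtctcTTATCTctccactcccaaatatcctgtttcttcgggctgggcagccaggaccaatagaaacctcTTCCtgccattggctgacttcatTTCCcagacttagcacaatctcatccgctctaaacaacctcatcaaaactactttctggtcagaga
The Elk3 window held 2 GGAA cores and no match to the other motifs. The Tal1 window held a GATA match (TTATCT) at base 46 and an E-box match (CATCTG) at base 261, the 2 motif types that Gata2 and Tal1 are known to bind. The Erg window held a Sox match (CATTGT) at base 130 and a GATA match (TTATCT) at base 148.

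The members' counts were set against all 32851 windows of the table. The GATA motif was found in 2 of 9 member windows and in 18.6% of all windows, the E-box in 1 of 9 and 17.2%, and the Sox motif in 1 of 9 and 28.6%. The longer Ets core CCGGAA, which contains GGAA, was in 0 of 9 and in 14.9% of all windows. GGAA alone was in 9 of 9 and in 96.0% of all, so it tells windows apart hardly at all. A match is a description of letters in these windows, and binding was not measured.

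Other Ets family genes gave no common direction. Of 21 listed, 19 were on the array and 9 were tested, with 4 log2 changes above 0 and 5 below, and a median of -0.03. No gene passed (0.115% of all genes tested did), and 0 had an unadjusted p under 0.05. Etv6, an Ets repressor needed for blood and vessel development, read 211 and 368 in the controls against 387 and 417 in the Prox1-labelled pair (log2 change 0.46, adjusted p = 0.449), with 0.80 (adjusted p = 0.0389) without control clone 2. Elf2 gave -0.33 (adjusted p = 0.526). Etv2, the Ets factor that starts endothelial fate in the embryo, lay under the filter at 144 to 187 in the 4 clones.

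The remaining Gata and Sox genes were mostly dim. Of 11 on the array 3 were tested, with a median of 0.01, and none of Gata1, Gata3, Gata4, Gata5 and Gata6 passed the filter. Sox4, a SoxC factor of progenitor and tumour cells, gave -0.47 (adjusted p = 0.423), from 8568 and 4931 to 4515 and 4865. Control clone 1 stood apart at the high end here, and without it the change was -0.07. Sox13 gave 0.02 (adjusted p = 0.981).

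Partners of Tal1, Lmo2 and Gata2 had 10 of 13 tested log2 changes above 0, against 50.9% of all genes, and a median of 0.25. Of the 13, 4 had an unadjusted p under 0.05 in the higher direction, against 8.22% of all genes, and 7 were higher without overlap, against 23.2%. After adjustment 0 passed. Lyl1, the close relative of Tal1, read 205 and 281 in the controls against 497 and 382 in the Prox1-labelled pair, with a log2 change of 0.75 ± 0.23 (adjusted p = 0.209). Ssbp3, a single-stranded DNA-binding protein that stabilises the LIM domain-binding cofactor of the complex, read 387 and 618 against 833 and 825 (0.71 ± 0.24, adjusted p = 0.238). Without control clone 2 Lyl1 stood at 0.94 and Ssbp3 at 1.01, and without control clone 1 they stood at 0.56 and 0.40.

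**Figure D4:**
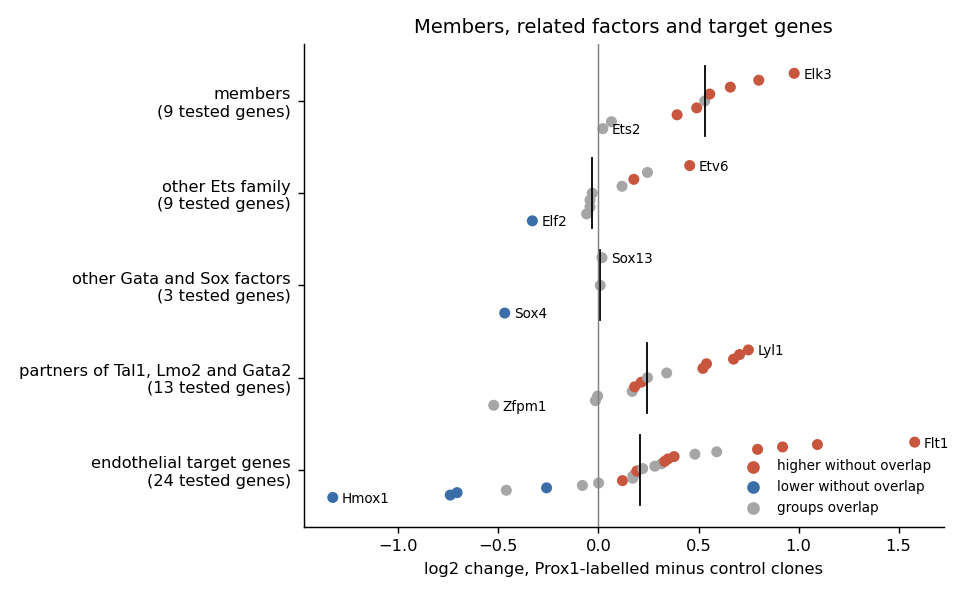
Log2 change of each tested gene in 5 lists, each gene by its brightest probe set; red genes were higher and blue genes lower in both Prox1-labelled clones than in both control clones, grey genes overlapped, and the black bar is the list's median. The medians are 0.53 for the members, -0.03 for other Ets genes, 0.01 for other Gata and Sox genes, 0.25 for the partners and 0.21 for endothelial target genes.

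A list of endothelial genes, most of them known targets of these factors, gave values in both directions. Of 30 listed, 26 were on the array and 24 were tested. Of these, 18 had a log2 change above 0 and 6 below, where 50.9% of all genes tested lay above 0. Their median was 0.21. After adjustment 0 passed, and at an unadjusted p under 0.05 there were 4 higher and 3 lower, against 8.22% and 6.14% of all genes. Without overlap between the groups, 9 were higher and 4 lower, against 23.2% of all genes in each direction. Vwf lay under the filter and, in every clone, under the highest Bacillus control (2.32 and 2.29 against 57.2 and 74.7). Among the genes tested, the smallest p belonged to Flt1, the VEGF receptor gene (1.58 ± 0.38, adjusted p = 0.164), from 42.1 and 182 to 390.5 and 369.7. Control clone 1 lay under the highest Bacillus control of its array (45.3) here, so the size of this change is uncertain, at 2.12 when no pseudocount was added and 1.00 when 173 was. Tek, the angiopoietin receptor gene, gave 0.92 ± 0.23 (adjusted p = 0.166), from 377 and 579 to 1005 and 857. Tie1, which encodes the partner receptor of Tek, read 762 and 1424 against 1850.0 and 1376, overlapped between the groups and gave 0.59 ± 0.29 (adjusted p = 0.388). Dropping control clone 1 left Flt1 at 0.90, Tek at 0.64 and Tie1 at 0.16. With control clone 2 dropped instead they stood at 2.26, 1.20 and 1.02. At the other end, outside the rule for naming and chosen after its values were seen, the heme oxygenase gene Hmox1 gave -1.33 (adjusted p = 0.175), and -0.65 without control clone 1.

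Most markers of blood and mesenchymal cells lay under the filter. As in the other lists, no tested gene passed the threshold. Of 10 erythroid and megakaryocyte markers on the array, 4 were tested, with a median of -0.18, and the summed intensity of all 10 was 1545 and 1543 in the controls against 1504 and 1156. In this list the platelet chemokine gene Pf4 read 421 and 316 against 180.0 and 197 (-0.81, adjusted p = 0.175), and the integrin gene Itga2b gave -0.20 (adjusted p = 0.715). Of 10 leukocyte markers 2 were tested, Cd68 (-0.25, adjusted p = 0.607) and Csf1r (0.10, adjusted p = 0.906), with sums from 1539 to 2012. Of 10 mesenchymal markers 2 were tested, Acta2 (-0.32, adjusted p = 0.629) and Col1a2 (-0.03, adjusted p = 0.968), with sums from 816 to 1262.

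The precision of the arrays bounds all of these statements. The median SE of a log2 change was 0.23 over the member probe sets tested and 0.21 over all probe sets tested, and the smallest log2 change that passed anywhere on the array was 1.44 in size. Changes of the size seen for Elk3, Fli1, Tal1 and Sox7 were thus below what passed in this comparison, and their adjusted p does not show that the clones are alike.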

How the data were processed

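RNA of 4 Py-4-1 clones was measured on one-colour Affymetrix arrays, 1 per clone, and the sample titles give groups and clone numbers. As deposited, the values are linear intensities, 1 per probe set, summarised with MAS5 (version not given in the sources used here) per the submitters' processing notes. Detection calls were not used here. Each column had a mean of 500 after trimming 2% at either end, so no further normalization was applied. Of 22690 probe sets, 64 Affymetrix controls were left out.

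The analysis used log2(intensity + 47), with 47 taken as the 25th percentile over all values. The 11656 probe sets that exceeded the array median on at least 2 arrays entered a 2-sided limma test (version 3.58.1, R 4.3.3; lmFit, then eBayes with its intensity trend) with Benjamini-Hochberg adjustment over all tested and a threshold of 0.05. Errors of log2 changes are standard errors, and those of intensities SDs of 2 clones. Precision is limited by the number of arrays: with 2 clones in each group, the smallest p of an exact permutation test is 0.333. The fit was run on simulated data drawn with its own error estimates, which checks the code and not how well it finds changes in these clones. In lists, each gene is read from its brightest probe set by mean log2 value.

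All member probe sets are named. From each other list up to 4 genes past the threshold were named, or else the 2 with the smallest p, and the 5 genes nearest to the tested member with the largest change by its brightest probe set and no overlap. Genes outside this rule were picked with their values known. The members and lists were chosen with earlier results of these data known. GGAA was added to the motifs after the others had been searched. Clone numbers do not pair clones across groups (correlation of their deviations -0.00909).

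Alternatives were quantile normalization, median centring, other pseudocounts, no filter or a stricter one, other variance models, a block on clone number, each clone left out in turn, and the mean over probe sets of a gene.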

Additional observations from a re-analysis of the deposited data

How the results depend on the processing

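Over 13 alternatives, 218 of 226 log2 changes of single probe sets kept their sign. The filter, variance model and block settings leave a log2 change as it was, so they could not turn a sign. Ets2 turned to -0.02 under median centring. With 1 clone dropped, the ranges that crossed 0 were -0.02 to 1.36 for Erg, -0.19 to 0.32 (1422027_a_at) and -0.14 to 0.27 (1426725_s_at, with -0.11 as its other negative value) for Ets1, -0.39 to 0.43 for Ets2 (with -0.05 as well) and -0.10 to 1.16 for Lmo2. The count of member probe sets past the threshold, 0 of 16, was 1 without the intensity trend and with the clone number as a replicate block (Sox17 1429177_x_at in both, adjusted p = 0.0456 and 0.00553, a probe set that passed the filter through the Prox1-labelled clones alone and had an adjusted p of 0.367 without it), and from 1 to 8 on leaving out a clone. The count over all probe sets, 12, was 4 under quantile normalization, 0 without the filter (limma, 1332 higher at an unadjusted p under 0.05), 7 with the robust variance model, 110 with the block, and from 42 to 1150 on leaving out a clone. Listed genes past the threshold, 0, became 2 with the block and from 0 to 20 on leaving out a clone. On leaving out a clone, the highest count of each kind came from the same fit, that without control clone 2. The highest member count thus belongs with the highest count over all probe sets. In such fits the lone clone of a group is assumed to vary like the clones of the other, so these counts support no call. The cause of the shifts in the counts was not tested. With the clone number as a block no pairing is given by the labels, so these counts describe the fit only. The median over the tested member genes ran from 0.35 to 0.68 with a clone dropped and from 0.47 to 0.55 under the other settings. Signal over background limits Sox17, Erg and Flt1.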
